A study of Rattus norvegicus with 12 samples.

Results

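Sebaceous gland lipid genes were examined in wound tissue of diabetic rats. The members were 8 genes, taken by their symbols from the deposited tables, namely *Awat1*, *Awat2*, *Dgat2l6*, *Far2*, *Elovl3*, *Soat1*, *Rdh7*, and *Mc5r*. They were 8 of the 25620 genes in the table of read counts and of the 25524 genes in the table of FPKM (fragments scaled by gene length and by library total). In skin, sebaceous glands sit beside the hair follicle, and their cells, the sebocytes, fill with lipid droplets and then burst to release sebum. Sebum is rich in wax esters, triglycerides, and sterol esters. Its synthesis uses elongases that lengthen fatty acids, reductases that turn fatty acids into alcohols, and acyltransferases that join the parts, and melanocortin peptides and retinoids are known regulators of the gland.

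All rats were male SD rats made diabetic with streptozotocin (STZ), which destroys the insulin-producing cells of the pancreas, and each wound was a full-thickness skin wound of the back. The 4 groups were the control, which received saline, *A. fulica* d-SMG, the dried mucus gel of a land snail, s-GAG, a glycosaminoglycan prepared from that mucus, and Alg, a commercial alginate dressing. Each group gave 1 library of total RNA on day 3, 7, and 14, 12 libraries altogether, and the number of animals behind a library is not given in the sources used here. The STZ model is known to mimic a human diabetic ulcer only in part.

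Between 13748887 and 38302461 reads fell on genes in a library. Levels are given as CPM (reads per 1000000 reads, with the TMM normalization of edgeR), and intervals are exact 95% intervals (Clopper-Pearson for ratios) that cover the counting error only. The d-SMG library of day 3 stood apart from the other 11. Its 14 keratinocyte markers summed to 82.2 CPM, against 4385 to 40110 CPM elsewhere, with *Klf5* (25.2 CPM), which is not restricted to the epidermis, as the highest of them and *Krt14* at 21.9 CPM. None of the 14 markers was at 0 reads in any library. Its 15 skeletal muscle markers summed to 270700 CPM, the highest of the 12 libraries (6586 to 161600 CPM in the others). The labels call every sample skin, and the defining keratins of the epidermis were thus nearly absent from that library, and the comparisons over the days, the likeness, and the ranges are therefore also given without it.

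Of the 8 genes, *Awat1*, *Awat2*, and *Dgat2l6* lie on chromosome X, and in the RefSeq gene order of the GRCr8 assembly 3 other protein-coding genes, *Otud6a*, *LOC108349172*, and *Igbp1*, separate *Awat2* from *Dgat2l6*, whereas *Awat1* directly follows *Dgat2l6*. These 3 genes belong to the DGAT2 family of acyltransferases. *Awat1* and *Awat2* join fatty alcohols to fatty acids to form wax esters. *Elovl3* is on chromosome 1, *Far2* on chromosome 4, *Rdh7* on chromosome 7, *Soat1* on chromosome 13, and *Mc5r* on chromosome 18. RefSeq promoter sequences, which span 250 bases before to 50 bases after the start, were found for 7 of the 8 genes, all but *Mc5r*. The promoters of the X-linked acyltransferases are shown because *Awat1* and *Awat2* shared their highest and lowest libraries but differed most from each other in the s-GAG library of day 14. Each is written 5′ to 3′ on the strand of its gene, and capitals mark matches to CCAAT or GGGCGG on either strand. *Awat1* is at chrX:69708036-69708335 on the plus strand, *Awat2* at chrX:69530615-69530914 on the minus strand, and *Dgat2l6* at chrX:69654269-69654568 on the plus strand (GRCr8).
Awat1: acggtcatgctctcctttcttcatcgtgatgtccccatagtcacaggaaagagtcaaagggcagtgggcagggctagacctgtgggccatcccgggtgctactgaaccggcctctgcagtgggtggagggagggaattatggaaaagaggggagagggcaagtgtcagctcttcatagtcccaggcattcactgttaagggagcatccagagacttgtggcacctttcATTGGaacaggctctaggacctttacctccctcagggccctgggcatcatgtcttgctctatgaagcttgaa
Awat2: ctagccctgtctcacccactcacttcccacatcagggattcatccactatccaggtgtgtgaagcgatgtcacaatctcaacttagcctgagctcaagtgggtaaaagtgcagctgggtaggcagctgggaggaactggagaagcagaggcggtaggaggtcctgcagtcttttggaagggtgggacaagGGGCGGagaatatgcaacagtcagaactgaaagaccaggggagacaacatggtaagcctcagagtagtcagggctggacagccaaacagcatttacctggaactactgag
Dgat2l6: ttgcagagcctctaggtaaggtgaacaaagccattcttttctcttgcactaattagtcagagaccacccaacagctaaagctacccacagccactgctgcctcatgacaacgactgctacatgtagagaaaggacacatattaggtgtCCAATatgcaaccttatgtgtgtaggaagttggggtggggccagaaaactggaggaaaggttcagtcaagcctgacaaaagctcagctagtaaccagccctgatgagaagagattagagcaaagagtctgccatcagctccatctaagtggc
The CCAAT box was thus found in *Awat1*, where it reads in the opposite direction and begins 22 bases before the start, and in *Dgat2l6*, 102 bases before the start. *Awat2* held no CCAAT but 1 GC box (GGGCGG), 60 bases before the start.

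Over the 7 promoters, CCAAT was found in 4 (*Awat1*, *Dgat2l6*, *Elovl3*, and *Soat1*), against 37.5% of all 33469 RefSeq promoters. GGGCGG was found in 4 (*Awat2*, *Far2*, *Elovl3*, and *Soat1*), against 33.1%. The nuclear receptor motif AGGTCA was found only in *Rdh7*, which held 2, against 16.2% of all promoters, and TATAAA was found in 0 of the 7, against 14.2%. Both strands were searched, and no matches of different motifs overlapped. These matches describe the letters in the window and do not show a bound site.

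Per length, the wax ester synthases were the most abundant of the 8 genes, with a median over the 12 libraries of 29.8 FPKM for *Awat2* and 26.6 FPKM for *Awat1*, followed by *Elovl3* (24.3 FPKM), *Soat1* (16.9 FPKM), and *Rdh7* (14.5 FPKM). *Dgat2l6* (4.43 FPKM), *Far2* (2.79 FPKM), and the receptor *Mc5r* (0.885 FPKM) were the least abundant. Without the d-SMG library of day 3 the medians of *Awat1* and *Awat2* were 32.2 and 30.1 FPKM, in the other order, and the rest kept their order. In wound tissue, fewer cells of a type and less RNA per cell cannot be told apart.

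*Awat1* was measured at 30.6, 22.2, and 48.1 CPM in the control libraries of day 3, 7, and 14, respectively. It was 0.499, 17.6, and 104.6 CPM in the d-SMG libraries, 57.2, 45.8, and 379.5 CPM in the s-GAG libraries, and 28.7, 61.3, and 27.0 CPM in the Alg libraries on the same days. The s-GAG library of day 14 was the highest by far, the d-SMG library of day 14 was the next, and the intervals of neither overlapped those of the library below. *Awat2* was 27.2, 25.3, and 63.9 CPM in the control, and 0, 14.2, and 62.3 CPM in the d-SMG libraries. It was 42.4, 32.2, and 93.9 CPM in the s-GAG libraries and 19.1, 46.0, and 29.8 CPM in the Alg libraries. The 2 genes thus shared the highest library and the lowest one, which was the d-SMG library of day 3 with 6 reads of *Awat1* and 0 of *Awat2*. The highest *Awat2* level was only 1.47-fold above the control of its day, against 7.88-fold for *Awat1*. *Dgat2l6*, a family member with a less settled role, was 6.38, 2.37, and 7.08 CPM in the control, 0.0832, 5.88, and 11.1 CPM in the d-SMG, 4.76, 7.18, and 17.1 CPM in the s-GAG, and 3.75, 9.48, and 5.36 CPM in the Alg libraries. With 35 to 282 reads in the other 11 libraries and 1 read in the d-SMG library of day 3, it was the least precise of the acyltransferases, and 9 of the 11 pairs of neighbours in its order had overlapping intervals.

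*Elovl3*, an elongase of saturated and monounsaturated very long chain fatty acids, was 44.9, 44.7, and 31.2 CPM in the control libraries. It was 0.416, 39.9, and 162.7 CPM in the d-SMG libraries, 69.8, 71.7, and 224.3 CPM in the s-GAG libraries, and 38.8, 126.0, and 47.5 CPM in the Alg libraries. On day 14 the control was the lowest of the 4 groups, and the s-GAG and d-SMG libraries were the 2 highest of all 12. *Far2*, the reductase that supplies fatty alcohols for wax esters, was 18.7, 10.8, and 6.21 CPM in the control, 0, 13.8, and 31.0 CPM in the d-SMG, 13.4, 8.66, and 21.9 CPM in the s-GAG, and 13.1, 34.3, and 11.8 CPM in the Alg libraries. Its control library of day 14 was the lowest of the 11 libraries other than the d-SMG library of day 3, as it was for *Elovl3*. The chain elongase and the alcohol reductase therefore had the same lowest libraries, although the highest was s-GAG on day 14 for *Elovl3* and Alg on day 7 for *Far2*.

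*Soat1*, which esterifies cholesterol and is used in many cell types, macrophages included, was 59.7, 86.4, and 98.9 CPM in the control libraries. It was 15.7, 71.2, and 128.2 CPM in the d-SMG, 117.6, 79.8, and 91.5 CPM in the s-GAG, and 45.6, 122.2, and 69.7 CPM in the Alg libraries. Over the 11 libraries other than d-SMG of day 3 its range was 2.81-fold, the smallest of the 8 genes, against 21.5-fold for *Awat1*. *Rdh7*, a retinol dehydrogenase, was 19.5, 11.3, and 16.7 CPM in the control, 0, 11.8, and 45.9 CPM in the d-SMG, 43.8, 29.3, and 64.1 CPM in the s-GAG, and 10.2, 56.7, and 14.1 CPM in the Alg libraries. *Rdh7* lies next to *Rdh9* and close to *Rdh16* and a pseudogene of the family, and how reads shared with such relatives were counted is not given in the sources used here, so that its counts are less certain. *Mc5r*, the melanocortin receptor of exocrine glands, was 6.29, 3.66, and 3.78 CPM in the control, 5.66, 1.2, and 3.13 CPM in the d-SMG, 4.59, 6.54, and 3.70 CPM in the s-GAG, and 1.97, 12.3, and 4.66 CPM in the Alg libraries. Its lowest library was d-SMG on day 7, not on day 3, and 10 of the 11 pairs of neighbours in its order had overlapping intervals, the exception being the Alg library of day 7 above the rest.

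**Figure D1:**
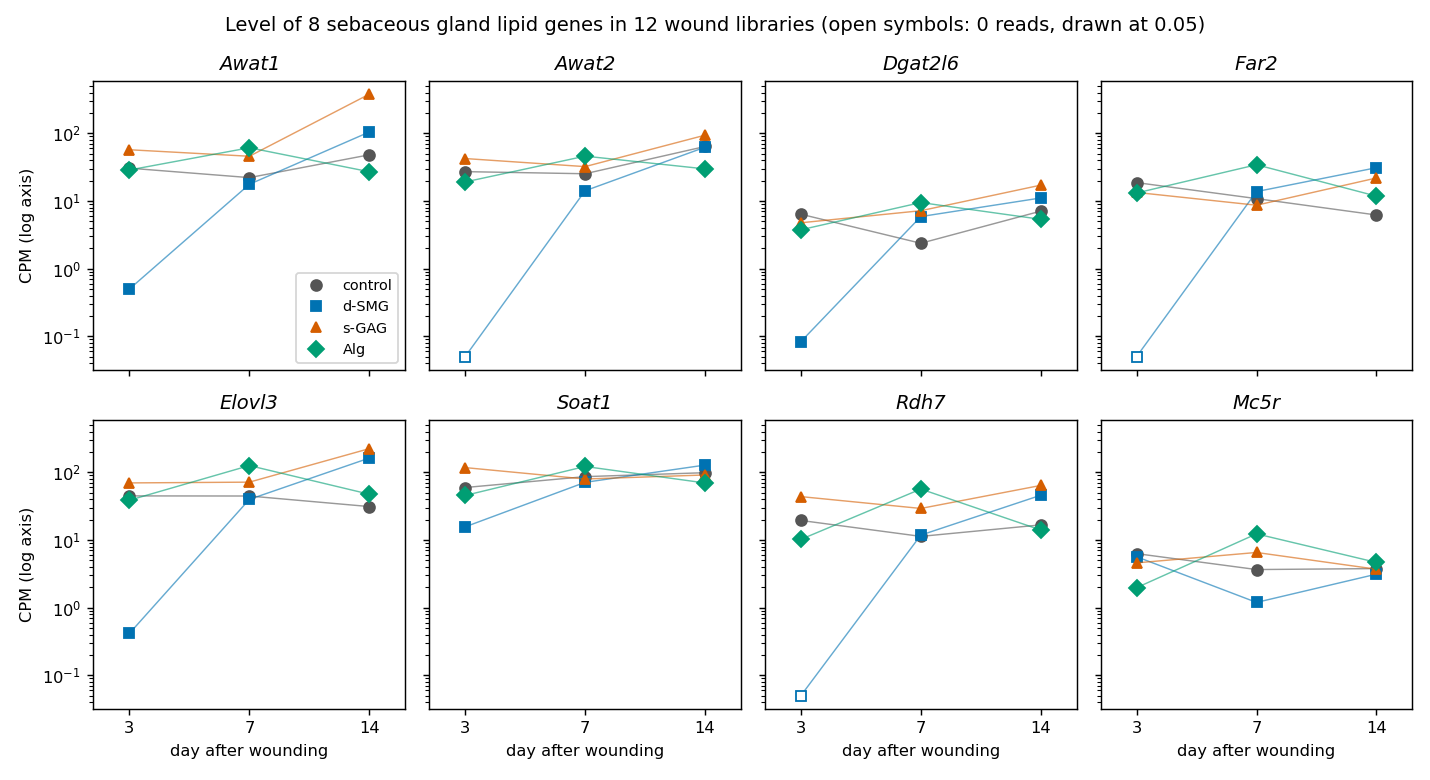
Level of each of the 8 genes (CPM, log axis) against the day after wounding in the 12 libraries, 1 point per library, with colours for the 4 groups and open symbols at 0.05 for 0 reads. In 6 genes the d-SMG library of day 3 lies far below the rest, at 0 to 0.499 CPM, whereas *Mc5r* stood there at 5.66 CPM.

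Each treated library was set against the control library of its day, which the 3 treatments of that day share. With 1 library per group these differences have no replicate check and no test, and a difference was called when it reached 4-fold. On day 3, 6 of the 8 genes were at least 4-fold lower in the d-SMG library than in the control, where 5.21% of all 15846 genes were so. *Awat2* (639 control reads and 0 d-SMG reads) was at least 109-fold lower, *Rdh7* (458 and 0 reads) at least 77.9-fold lower, and *Far2* (440 and 0 reads) at least 74.9-fold lower, with 0 set to 3 reads. *Elovl3* (1056 and 5 reads) was 108-fold lower, with an interval of 46.1 to 333. *Awat1* (719 and 6 reads) was 61.2-fold lower, with an interval of 28.0 to 167. *Dgat2l6*, with 150 reads against 1, had a control to d-SMG ratio of 76.6 and an interval of 13.5 to 3045 on the reads as counted, and its log2 fold was −4.67 with the d-SMG library set to 3 reads, the value the call used. These 6 genes thus ranged from 0 to 6 reads in that library. *Soat1* was just outside the 4-fold limit, 3.81-fold lower (3.27 to 4.46, log2 fold −1.93). It was past the limit, at a log2 fold of −2.39 with the library size alone and −2.35 on FPKM with a pseudocount of 0.1, so that 7 of the 8 genes were then called. *Mc5r*, with 68 reads against 148, had a log2 fold of −0.15 and an interval of −0.59 to 0.27. In the other direction, 0 of the 8 genes were 4-fold higher, where 2.58% of all genes were.

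On day 7, 0 of the 8 genes were 4-fold lower or higher in the d-SMG library, where 1.93% of all 16164 genes were lower and 1.4% higher. The median log2 fold of the 8 genes was −0.22, and 5 lay below and 3 above the control (3 and 5 with the library size alone, where *Elovl3* was at 0.13 and *Soat1* at 0.01), from −1.61 for *Mc5r* to 1.31 for *Dgat2l6*. On day 14, 2 genes were at least 4-fold higher in the d-SMG library, *Elovl3* (5.21-fold, 4.78 to 5.69) and *Far2* (5.0-fold, 4.11 to 6.12), where 3.09% of all 16395 genes were higher. None of the 8 was 4-fold lower, where 4.82% of all genes were. *Rdh7* was 2.74-fold and *Awat1* 2.17-fold higher, whereas *Awat2* stood at a log2 fold of −0.04, with an interval of −0.16 to 0.08 and a value of 0.15 with the library size alone.

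In the s-GAG group, 0 of the 8 genes reached 4-fold on day 3 or 7. The share of all genes was 1.95% lower and 4.79% higher on day 3, and 3.69% lower and 4.18% higher on day 7. The median log2 fold of the 8 genes was 0.64 on day 3 and 0.76 on day 7, with 5 and 6 genes above the control, respectively, and *Far2* below it on both days (−0.48 and −0.32). On day 14 *Awat1* was 7.88-fold higher (7.37 to 8.44) and *Elovl3* 7.18-fold higher (6.60 to 7.83), and *Rdh7* was just under the limit at 3.83-fold (3.39 to 4.34). These 2 of 8 genes stand beside 10.7% of all 16517 genes that were 4-fold higher on that day, and 13.9% that were 4-fold lower, so that many genes differed in this pair of libraries. *Soat1* (log2 fold −0.11, −0.21 to −0.01) and *Mc5r* (−0.03, −0.55 to 0.48) were close to the control.

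In the Alg group, all 8 genes lay below the control on day 3, except that *Awat1* was at a log2 fold of 0.06 with the library size alone, and all 8 above it on day 7. On day 3 the log2 folds ran from −1.67 for *Mc5r* to −0.09 for *Awat1*, with a median of −0.51, and 0 of the 8 reached 4-fold, where 2.11% of all genes were lower and 2.86% higher. On day 7 they ran from 0.50 for *Soat1* to 2.33 for *Rdh7*, with a median of 1.58. *Rdh7* was 5.01-fold higher (4.24 to 5.95) and the only gene called, and *Dgat2l6* was just below the limit at 3.998-fold (2.75 to 5.97), where 2.52% of all genes were higher and 2.63% lower. *Mc5r* reached its highest level of the 12 libraries there, 3.37-fold above the control (2.48 to 4.65). On day 14, 0 of the 8 were called, where 3.6% of all genes were lower and 3.23% higher, and the genes were split, with *Awat2* 2.14-fold lower (1.93 to 2.39) and *Far2* 1.90-fold higher (1.51 to 2.40).

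**Figure D2:**
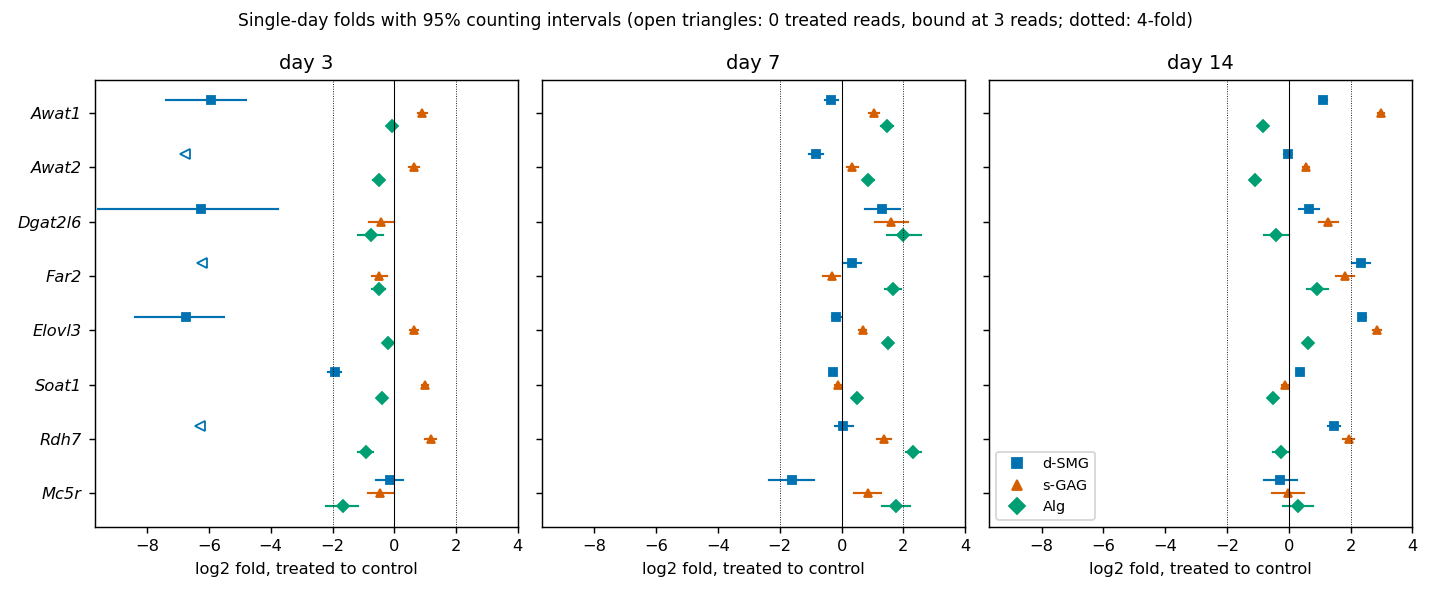
Log2 fold of each treated library to the control library of its day for the 8 genes on day 3, 7, and 14, with 95% counting intervals as bars, open triangles for bounds at 3 reads, and dotted lines at 4-fold. The long bar of *Dgat2l6* in the d-SMG library of day 3 (1 read) is cut off near the left edge, and its interval reaches −11.57. The d-SMG points of day 3 for 6 genes lie left of the 4-fold line. The s-GAG points of *Awat1* and *Elovl3* lie right of it on day 14.

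The treatments were then compared over the days with the quasi-likelihood test of edgeR on all 12 libraries, in which the days stand in for replicates of a treatment and the treatments for replicates of a day. None of the 8 genes was called in any of the 6 comparisons at an FDR of 0.05, and 0 of 16037 genes (0%) were called in each. At an unadjusted p under 0.05 there were 209 genes for d-SMG, 1462 for s-GAG, and 497 for Alg against the control, 287 for day 7 against day 3, 793 for day 14 against day 3, and 484 for day 14 against day 7, and none of the 8 genes was among them. The Wald test of DESeq2 called 9, 282, 93, 18, 46, and 26 genes in these comparisons, respectively, again with 0 of the 8. The log2 fold changes of the 8 genes ran from −1.25 to −0.07 for d-SMG (all 8 below 0, or 6 of 8 with the library size alone), from 0.09 to 1.57 for s-GAG (all 8 above 0, also with each other scaling), and from −0.11 to 0.60 for Alg (6 above 0). For s-GAG, 5 lay above 0 without the s-GAG library of day 3, and 6 without the control library of day 7. With any other single library left out, 7 or 8 did. Without the d-SMG library of day 3, the unadjusted p by edgeR was 0.0393 for *Awat1* in s-GAG against the control. For *Awat2* it was 0.0342 in day 14 against day 3 and 0.0451 in day 14 against day 7. None of these passed the FDR of 0.05.

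The direction over the days for d-SMG depended on the library of day 3. Without it, the median log2 fold change of the 8 genes was 0.35 instead of −0.41, and 6 of the 8 lay above 0, with *Far2* at 0.99, *Elovl3* at 0.93, and *Mc5r* at −1.14, and the adjusted p of each was 1 by the same edgeR test. Without the control library of day 3 the median was 0.13, and without the d-SMG library of day 14 it was −1.74. For s-GAG against the control, *Awat1* had the largest log2 fold change of the 8 genes, 1.57 with an adjusted p of 0.644 in the edgeR test, and 1.75 with an adjusted p of 0.444 without the d-SMG library of day 3. *Rdh7* followed with 1.40 (adjusted p = 0.696 by edgeR). The s-GAG median was 0.54, from 0.38 without the control library of day 7 to 1.52 without that of day 3. For Alg against the control, the median was 0.43 (also without the d-SMG library of day 3), but −0.42 without the Alg library of day 7 and 1.31, 0.05, and 0.06 without the control library of day 3, 7, and 14, respectively. Between days, the log2 fold changes of day 14 against day 3 were largest for *Awat1* (2.35, adjusted p = 0.881 by edgeR) and *Awat2* (1.99, with the same adjusted p), and that of *Mc5r* was −0.39. Without the d-SMG library of day 3 the values were 1.57 for *Awat1* and 1.23 for *Awat2*, each with an adjusted p of 1 by edgeR, and 0.12 for *Mc5r*. The median of the 8 genes was then 0.67 instead of 1.43, and it was 2.31 without the control library of day 3. For day 7 against day 3, all 8 genes lay above 0 (0.08 to 0.995), with a median of 0.75, and 7 of 8 with a median of 0.23 without that library, while leaving out other libraries gave 0.12 (Alg of day 7) to 1.33 (control of day 3). For day 14 against day 7, the median was 0.61, 0.33 without the d-SMG library of day 3, −0.50 without that of day 14, and 1.11 without the Alg library of day 14.

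Because *Awat1* and *Awat2* share a family, a chromosome, and a role, their reads were also compared within each library, where the total cancels out. The ratio was chosen after its values were seen. There were 1.13 *Awat1* reads per *Awat2* read in the control of day 3 (1.01 to 1.25), 0.877 on day 7 (0.753 to 1.02), and 0.753 on day 14 (0.693 to 0.819). In the s-GAG libraries the ratio was 1.35 on day 3 (1.23 to 1.49), 1.42 on day 7 (1.32 to 1.53), and 4.04 on day 14 (3.82 to 4.28). The Alg libraries held 1.5, 1.33, and 0.907 *Awat1* reads per *Awat2* read, and the d-SMG libraries of day 7 and 14 held 1.25 and 1.68. The control thus had the lowest ratio on each day, all 8 treated libraries with reads of both genes lay above the control of their day, and in 6 of them the intervals did not overlap. The next highest ratio after s-GAG on day 14 was 1.68. With 1 library per group and day, and the control library shared by the treatments of a day, the spread between animals behind this order is unknown. Per length, *Awat1* was below *Awat2* in all 3 control libraries (21.1 against 24.9, 15.1 against 22.9, and 33.6 against 59.3 FPKM) and above it in the s-GAG library of day 14 (208 against 68.4 FPKM).

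**Figure D3:**
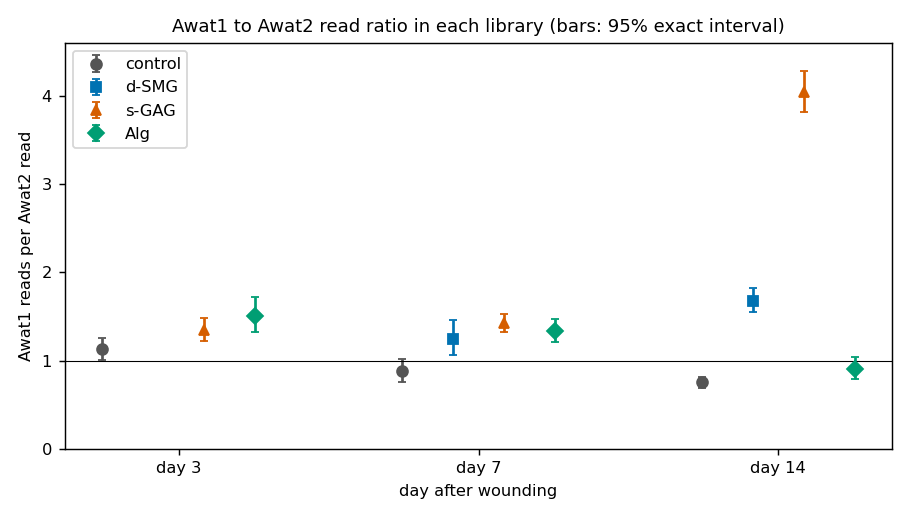
*Awat1* reads per *Awat2* read in each library by day after wounding, with exact 95% intervals as bars and a line at 1, leaving out the d-SMG library of day 3, which held 0 *Awat2* reads. The control is the lowest of each day (1.13, 0.877, and 0.753), and s-GAG on day 14 stands apart at 4.04.

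For comparison, 3 other pairs were computed. Those of *Elovl3* and *Dgat2l6* to *Awat2* use the same *Awat2* reads as the ratio above, so they are not independent of it. *Elovl3* to *Awat2* lay above the control of the day in 7 of 8 treated libraries, with intervals apart in 6. *Dgat2l6* to *Awat2* lay above it in 6 of 8, with intervals apart in those 6, and the interval of 1 library lay below that of the control. *Elovl3* to *Soat1* lay above it in 7 of 9, with 5 intervals above and 2 below that of the control. There were 0.489 *Elovl3* reads per *Awat2* read in the control of day 14, against 2.61 in d-SMG, 2.39 in s-GAG, and 1.59 in Alg on that day. On day 3 the ratio was 1.65 in both the control and s-GAG. *Elovl3* reads per *Soat1* read ranged from 0.0266 in the d-SMG library of day 3 (0.00854 to 0.0632) to 2.45 in the s-GAG library of day 14 (2.3 to 2.61). The elongase gene and the more broadly used sterol acyltransferase gene thus did not keep a fixed ratio.

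The levels of the 6 genes called in the d-SMG library of day 3, leaving out *Soat1* and *Mc5r*, were summed and set beside markers of other cell types. This sum was 147, 117, and 173 CPM in the control libraries of day 3, 7, and 14. It was 0.999, 103, and 418 CPM in the d-SMG, 232, 195, and 801 CPM in the s-GAG, and 114, 334, and 136 CPM in the Alg libraries. The keratinocyte sum had the same extremes, since it was lowest in the d-SMG library of day 3 (82.2 CPM) and highest in the s-GAG library of day 14 (40110 CPM). *Krt14* alone made 23450 CPM of the latter sum, and the other markers were split. In that library 8 of the 14 markers lay above and 6 below the control of the day. At least 4-fold higher were 3 of them and 4 were lower, where 10.7% and 13.9% of all genes were. Reads per keratinocyte read thus depend heavily on *Krt14* there. Per 1000 reads on keratinocyte markers, the 6 genes had 12.2 reads in the d-SMG library of day 3, with an interval of 6.26 to 21.3, against 7.34 to 26.6 in the other 11 libraries. That library was the lowest in CPM for all 6 genes, but they were picked by their call there, so that low levels follow from the choice. Of its 987 keratinocyte-marker reads, 303 were of *Klf5*. For the 6 genes so picked, that library lay within the range of the rest on this scale. Over all 8 genes it did not, with 272 reads per 1000 keratinocyte reads (236 to 311), against 11.4 to 47.2 in the other 11 libraries, since *Soat1* and *Mc5r* held 188 and 68 of the 268 reads there. The control libraries of day 3 (25.3) and day 7 (26.6) were the highest per 1000 keratinocyte reads and the Alg library of day 14 (7.34) the lowest. Per 1000 reads of *Krt79*, a keratin of the sebaceous duct and the upper hair follicle, the 6 genes had 245 reads in the d-SMG library of day 3 (119 to 467), 114 in the Alg library of day 14, and 513 in the s-GAG library of day 14. The s-GAG library of day 14 was thus the highest per *Krt79* read but not per keratinocyte read (20.0). These ratios were chosen after the levels were seen.

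The 16 hair follicle markers shared the lowest library with the 6 genes but not the highest. They summed to 34.9 and 84.9 CPM in the control libraries of day 3 and 7, to 26.9 CPM in the d-SMG library of day 3, and to 44460 CPM in the Alg library of day 14, where the 6 genes were at 136 CPM. In the d-SMG library of day 3, *Krt26*, *Krt28*, and *Dlx3* were at 0 reads, and in the control libraries of day 3 and 7, 2 of the 16 markers were at 0. The skeletal muscle sum was highest where the 6 genes were lowest (270700 CPM in d-SMG on day 3), but was also high in Alg on day 7 (161600 CPM) and s-GAG on day 14 (135400 CPM), where the 6 genes were high. Of the 10 adipocyte markers, which share lipid synthesis with sebocytes, the sum ranged from 596 to 2472 CPM, with s-GAG on day 14 the highest. The fibroblast sum ranged from 6217 CPM in d-SMG on day 3 to 43790 CPM in the control of day 7, and the leukocyte sum from 397 CPM in s-GAG on day 14 to 2996 CPM in the control of day 3. The part of these cell types in the levels of the 8 genes was not tested.

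**Figure D4:**
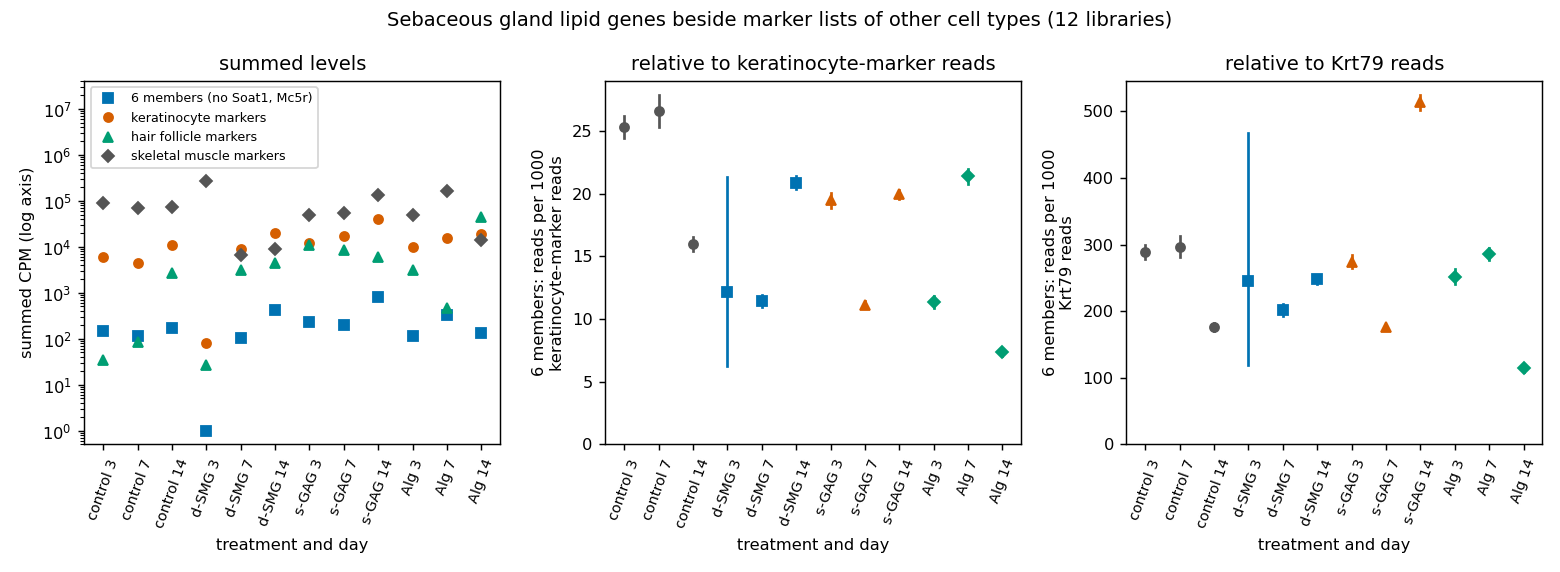
Left, summed CPM (log axis) of 6 sebaceous gland lipid genes and of keratinocyte, hair follicle, and skeletal muscle markers in the 12 libraries. Middle and right, reads on the 6 genes per 1000 keratinocyte-marker reads and per 1000 *Krt79* reads, with exact 95% intervals as bars. The d-SMG library of day 3 is the lowest on the left at 0.999 CPM but lies within the range of the other 11 libraries in the middle (12.2) and on the right (245). This holds for these 6 genes, which were picked by their call in that library, and not for all 8.

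The other genes of the pathway were taken from 4 lists set by hand. Of 28 genes of sebum lipid synthesis, 26 had at least 10 reads in the libraries of day 3, and 9 of them were 4-fold lower and 0 higher in d-SMG than in the control, where 5.21% of all genes were lower and 2.58% higher, with a median log2 fold of −0.99 against 0.00 for all genes. On day 14 the median of the 25 such genes was 0.44 in d-SMG, with 17 above the control and 0 called. In s-GAG the medians were 0.69, 0.50, and 0.20 on day 3, 7, and 14, and in Alg they were 0.08, 0.86, and 0.01. Over the days, 0 of the genes in any of the 4 lists were called in any of the 6 comparisons by edgeR. The 4 genes of this list with the widest range were *Elovl4* (1.08 CPM in d-SMG on day 3 and 171 to 731 CPM elsewhere), which makes fatty acids of ultra-long chain, *Acsbg1* (0.583 and 43.9 to 180.3 CPM), which activates fatty acids, *Elovl7* (0.499 and 14.2 to 48.5 CPM), another elongase, and *Cidea* (5.08 and 24.9 to 181.9 CPM), a lipid droplet protein. All 4 had their lowest level in the d-SMG library of day 3, which sets the choice by range, since without it 1 of the 4, *Cidea*, remained among the widest (4 of 4 for the sebocyte regulators, 4 of 4 for the melanocortin system, and 3 of 4 for retinoid metabolism). In addition, *Cidea*, like *Awat1*, had its highest level in s-GAG on day 14.

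Of 10 regulators and keratins of sebocytes, 2 were 4-fold lower and 0 higher in d-SMG on day 3, with a median log2 fold of −0.77, beside the same shares of all genes (5.21% and 2.58%). *Krt79* was at 4.08 CPM there and at 394 to 1684 CPM elsewhere. *Prdm1*, a transcription factor linked to the gland, was at 2.25 CPM and at 5.19 to 23.9 CPM elsewhere. *Sox9*, a stem cell factor, was at 11.2 CPM and not at its lowest there (7.40 to 66.2 CPM elsewhere). In the melanocortin list, *Mc3r* was not in the table, and 2 genes had enough reads on day 3. *Pomc*, the precursor of the ligands of *Mc5r*, was at 1.83 CPM in d-SMG on day 3 and at 0.407 to 3.05 CPM elsewhere, with its highest level in s-GAG on day 14. *Mc2r* reached at most 1.89 CPM. Both were counted on few reads, 10 to 47 in a library for *Pomc* and 2 to 74 for *Mc2r*. *Mc1r* (at most 1.04 CPM) and the accessory protein gene *Mrap* (at most 0.296 CPM) were near the limit of detection. On these few reads, the gene of the ligand precursor and that of the receptor *Mc5r* had different highest libraries.

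Of 18 genes of retinoid metabolism, *Rdh2* was not in the table, and of 16 with enough reads on day 3, 2 were 4-fold lower and 1 higher in d-SMG, again beside 5.21% and 2.58% of all genes. *Rdh12*, a retinal reductase, was at 0.166 CPM there and at 5.74 to 20.7 CPM elsewhere. *Aldh1a1*, which makes retinoic acid, was at 98.1 CPM there, above its range elsewhere of 7.75 to 77.1 CPM. *Dhrs9*, a retinol dehydrogenase, was at 6.33 CPM, within its range of 1.56 to 36.2 CPM, and its lowest level was in s-GAG on day 14, where *Rdh7* was highest. *Aldh1a3*, another enzyme of retinoic acid synthesis, was at 2.66 CPM, near the low end of its range of 2.37 to 43.2 CPM. In the d-SMG library of day 3 these retinoid genes thus ranged from far below to above their levels elsewhere.

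The genes with the pattern most like that of the 8 genes were found over the 12 libraries by Pearson's r with the mean of their standardized log2(CPM + 1), among 12045 genes that reached 100 reads somewhere. The 10 highest were *Pnpla5* (0.977), *Tmem45a* (0.976), *Akr1c2* (0.974), *Hsd3b2* (0.972), *Acer1* (0.972), *Fasn* (0.967), *Pdzk1* (0.965), *Hmgcs1* (0.964), *Espn* (0.964), and *Gsta4* (0.964). *Fasn*, the fatty acid synthase, and *Hmgcs1*, an enzyme of cholesterol synthesis, are on the sebum lipid list, *Pnpla5* is a lipase, and *Acer1* is a ceramidase of the epidermis. All 10 had their fewest reads in the d-SMG library of day 3 (0 to 358 reads). Without that library their r with the 8 genes ranged from 0.890 to 0.949, and 2 of them, *Pnpla5* and *Tmem45a*, remained among the 10 highest. The 5 lowest r were those of *Galk2* (−0.938), *Ttc9* (−0.928), *Invs* (−0.915), *Wnk1* (−0.910), and *Sdc3* (−0.907). The points share libraries and normalization, and these values describe likeness over 12 libraries only.

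Measured in the same way against the mean of the other 7, *Rdh7* was the most like its fellow members (r = 0.985, and 0.953 without the d-SMG library of day 3), followed by *Elovl3* (0.960 and 0.893). *Far2* had an r of 0.871, and 0.564 without that library, and *Soat1* 0.890 and 0.642. *Mc5r* had an r of 0.04 with the others, and 0.394 without it. The receptor thus followed the lipid enzymes the least, over 12 and over 11 libraries.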

How the data were processed

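RNA sequencing of rat wound tissue was taken from the deposited tables of 12 libraries, 1 for each of 4 groups on 3 days. Libraries were strand-specific, rRNA was removed, and read pairs were sequenced. The authors deposited read counts per gene, as whole numbers without normalization, and FPKM values, scaled by gene length and library total. Per the submitters' processing notes, bcl2fastq, FastQC, TopHat2, and edgeR were used, while the counting tool, the strand setting, the genome build, and the annotation are not given in the sources used here. Each table holds 1 further column that matches no described sample, which was not used.

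Counts were normalized by TMM in edgeR 4.0.16 (R 4.3.3) over the whole table. On single days, each treatment was set against the control of its day, a fold of at least 4 was called where both libraries together held at least 10 reads, and libraries under 3 reads were set to 3. Over the days, the quasi-likelihood test of edgeR was run on all 12 libraries with day and treatment as terms, filterByExpr, and an FDR of 0.05 by Benjamini-Hochberg. P-values then measure the spread between libraries of different days and treatments. The alternatives used DESeq2 1.42.0, limma 3.58.1 on log2(FPKM + 0.1) or log2(FPKM + 1), RLE size factors, the library size alone, other read minimums, an exact test at an assumed BCV (relative spread between replicates) of 0.3, each library left out, and a model without the other term. The steps were tested on simulated data. Scipy 1.17.1, Python 3.11.15, statmod 1.5.0, and matplotlib 3.10.9 were also used, and promoters came from RefSeq (GRCr8).

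The 8 genes, the lists, and the tests were chosen with earlier results of these data known. The rule for named genes took the 8 genes, up to 4 genes of each pathway list with the widest range of log2(CPM + 1), and the 10 genes most and 5 least like the 8 genes by Pearson's r, leaving out provisional symbols. Of the genes so named, 1 is not reported here. Differences between 2 libraries describe those libraries, not the conditions.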

Additional observations from a re-analysis of the deposited data

Results flagged for a closer look

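*Far2* and *Elovl3* were called at 4-fold on opposite sides of the control on different days of d-SMG treatment. Each of these points is 1 library, so that the difference between the days was not tested. The change of side was not particular to these genes. All 8 genes lay below the control on day 3, and 6 of the 8 lay above it on day 14. The log2 fold of *Far2*, d-SMG to control, was −6.23 on day 3 (a bound at 3 reads) and 2.32 on day 14. That of *Elovl3* was −6.75 on day 3 and 2.38 on day 14. On day 3 the keratinocyte markers summed to 82.2 CPM in the d-SMG library and to 5815 CPM in the control. On day 14 they summed to 20010 CPM in d-SMG, of which *Krt14* made 10520 CPM, and to 10840 CPM in the control. On that day 9 of the 14 markers lay above and 5 below the control. At least 4-fold higher were 2 and 4 were lower, where 3.09% and 4.82% of all genes were. The part of the keratinocyte markers in the change of side was not tested.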

How the results depend on the processing

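The number of genes called over the days was 0 of the 8 in every comparison and under every alternative run. Of the counts of the 8 genes called on single days, 123 values under the alternatives were within 1.5 times the main count, 4 of them not equal to it, and 3 were not. Most of these values belong to counts that were 0 in the main analysis and stayed 0. Every value that differed belongs to a count above 0. These counts were 6 lower for d-SMG on day 3, 2 higher for d-SMG and for s-GAG on day 14, and 1 higher for Alg on day 7. The calls were made at 4-fold, except that the exact test counted genes at an FDR under 0.05, whatever their fold. The count lower for d-SMG on day 3 was 7 with the library size alone, FPKM and a pseudocount of 0.1, or the exact test at a BCV of 0.3 (6 in the main analysis), and that higher for s-GAG on day 14 was 3 with RLE size factors. For d-SMG on day 14 the count higher was 1 on FPKM with a pseudocount of 1 (2 in the main analysis), for s-GAG on day 14 it was 4 with the exact test at a BCV of 0.3 (2 in the main analysis), and for Alg on day 7 it was 2 with RLE size factors (1 in the main analysis, since *Dgat2l6* lay just under the limit). For the gene of the 8 with the smallest p in each comparison over the days, 113 values kept their direction and 1 reversed, *Mc5r* in Alg against the control, from 0.42 to −0.52 without the Alg library of day 7 (up to 1.07 with another library left out). Scaling by library size alone shifted the median of all genes (log2 fold) by −0.46, 0.29, and 0.19 in d-SMG on day 3, 7, and 14, by 0.17 and −0.39 in s-GAG on day 3 and 14, and by 0.15 in Alg on day 3. Of the 10 genes most like the 8, 4 were shared with a ranking by Spearman's rho, and 2 with a ranking without the d-SMG library of day 3, which was chosen after seeing the data. Over all genes, edgeR called 54 for s-GAG against the control without the d-SMG library of day 3 and 282 were called by DESeq2, against 0 in the main analysis, with 0 of the 8 genes in each. The term for day matched the libraries of a day, and the labels give no replicate numbers for another pairing. Counts of 0 to 6 reads limit the folds of the d-SMG library of day 3.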
